A study of Mus musculus with 4 samples.

Results

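The enzymes that build, galactosylate, sulfate and break down sphingolipids were followed in sciatic nerve at postnatal day 7, in control mice and in mice with a conditional knockout of Zeb2 (Zeb2 cKO). They are 9 genes, chosen by symbol, of the 22096 gene symbols in the tables. Galactolipid synthesis is represented by 3 of them, Ugt8a, Fa2h and Gal3st1, and general sphingolipid metabolism by the other 6, Sptlc1, Sptlc2, Degs1, Ugcg, Asah1 and Galc. All 9 were quantified in both libraries, over 11 transcript rows, and all passed a filter of a mean of 1 FPKM (fragments mapped per kilobase, corrected for library depth).

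Both groups were of mixed strain background, and each sample was RNA of pooled nerves. The labels give the controls no genotype beyond the word control, and they name neither the Cre line nor the cell type in which Zeb2 was deleted. They describe 2 samples per group. The analysis used 1 table per group, with a single value per transcript, taken here as 1 library. Both samples of a group name the same table in their labels, so which of them it represents is uncertain. The tables hold an estimated 29616050 reads on RefSeq transcripts in control nerve and 20180394 in Zeb2 cKO nerve. No difference below therefore has a replicate check, no test between the conditions was possible, and differences are given by their size with 95% counting intervals. The intervals come from reads estimated from coverage and say nothing of how much pools or animals vary.

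Most sphingolipids are built on ceramide, which is made in the endoplasmic reticulum from serine and fatty acids. Myelin-forming Schwann cells attach galactose to ceramide, often to ceramide with a hydroxylated fatty acid, to make galactosylceramide, and add sulfate to it to make sulfatide. Both galactolipids are major lipids of the myelin sheath. Most other cells attach glucose to ceramide instead, as the first step towards gangliosides, or phosphocholine, to make sphingomyelin.

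The nerves differed between the libraries in several other ways. Zeb2, a zinc finger transcription factor that Schwann cells need to myelinate, was at 34.4 FPKM in control nerve against 19.5 FPKM in Zeb2 cKO nerve, or 56.8% of control (counting interval 54.8 to 58.8%), from 1 row for the whole transcript. Of 7 myelinating Schwann cell markers compared, all 7 were 2-fold or more lower, with their summed level at 25848 FPKM in control nerve against 1227 FPKM in Zeb2 cKO nerve. For this and the marker counts below, 6.25% of all genes past the filter were 2-fold or more lower and 8.59% as far higher. Sox10, a transcription factor of the whole Schwann cell lineage, was at 139 and 69.2 FPKM. The other lineage markers differed among themselves. S100b was 4.42-fold lower and Erbb3 3.01-fold lower, Foxd3 was at 35.7 and 29.4 FPKM, and Cdh19 was at 31.9 and 65.3 FPKM. Of 6 immature Schwann cell markers, 4 were 2-fold or more higher and 1, Ngfr, was lower, with a summed level of 81.4 and 482 FPKM, most of it Gfap at 300.1 FPKM in Zeb2 cKO nerve. Of 15 skeletal muscle markers, 15 were 2-fold or more lower, with a summed level of 9098 and 1128 FPKM and none of them at 0 in either library. Summed fibroblast markers stood at 5584 and 9162 FPKM, perineurial markers at 73.5 and 261 FPKM and adipocyte markers at 219 and 533 FPKM. In bulk nerve, fewer cells of a type and less RNA per cell cannot be told apart. The part of these cell types in the differences of the enzymes was not tested.

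Transcript starts of the galactolipid genes are shown first, because Gal3st1 has transcripts from an upstream and an internal start. The estimated levels of these transcripts were lower by unequal amounts. They share exons, and use of the starts themselves was not measured. The windows are RefSeq promoter sequence of build GRCm38.p6, read 5′ to 3′ on the strand of the gene, and capitals mark the E-box CACCTG or its reverse complement CAGGTG, the core motif that Zeb factors bind. RefSeq windows were found for 7 of the 9 genes, without Fa2h and Asah1. The window of Ugt8a (chr3:125938683-125938902, minus strand) has 1 E-box, at 219 to 214 bases before the RefSeq start at 125938652, and is printed without its last 30 bases, which lie within the annotated gene. The upstream window of Gal3st1 (chr11:3983386-3983635, plus strand) has none, and the internal window (chr11:3989683-3989932, plus strand, in an intron of the upstream transcripts) has 1, at 110 to 105 bases before the start. The window of Sptlc2 (chr12:87388356-87388605, minus strand) is given as that of the general enzyme with the largest difference, and has none.
Ugt8a: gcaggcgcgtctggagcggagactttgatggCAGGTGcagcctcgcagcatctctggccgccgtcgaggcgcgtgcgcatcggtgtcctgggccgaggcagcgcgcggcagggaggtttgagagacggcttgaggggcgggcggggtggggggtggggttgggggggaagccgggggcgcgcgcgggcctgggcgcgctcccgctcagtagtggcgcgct
Gal3st1 upstream start: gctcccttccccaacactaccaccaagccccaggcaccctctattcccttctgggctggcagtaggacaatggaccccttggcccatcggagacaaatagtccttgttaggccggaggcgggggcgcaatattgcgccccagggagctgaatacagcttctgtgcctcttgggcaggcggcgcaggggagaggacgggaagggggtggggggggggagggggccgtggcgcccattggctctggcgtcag
Gal3st1 internal start: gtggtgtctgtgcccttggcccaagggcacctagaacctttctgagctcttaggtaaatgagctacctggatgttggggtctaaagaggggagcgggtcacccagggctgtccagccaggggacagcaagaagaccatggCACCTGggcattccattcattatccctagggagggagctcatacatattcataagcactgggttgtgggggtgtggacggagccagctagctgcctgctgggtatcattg
Sptlc2: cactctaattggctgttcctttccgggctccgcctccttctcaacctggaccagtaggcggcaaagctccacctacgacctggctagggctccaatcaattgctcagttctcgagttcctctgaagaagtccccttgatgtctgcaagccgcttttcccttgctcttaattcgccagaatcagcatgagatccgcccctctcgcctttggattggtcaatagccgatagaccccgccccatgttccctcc

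Across the 9 windows of the 7 genes, the E-box was found in 3 over the 250 bases before the start, in Ugt8a, in the internal window of Gal3st1 and in Galc. Of all 32817 RefSeq windows of this length, 17.2% hold it. With the 50 bases after the start included, 5 of the 9 windows held it, against 20.2% of all windows. The upstream Gal3st1 windows were added, and the genes were still Ugt8a, Gal3st1 and Galc. Those upstream windows begin at 3983386 and 3983401 and are nearly the same sequence, so the count of windows holds 1 stretch more than once. AACAAT, a motif of Sox factors, and GCGTGGG, a motif of Egr factors, were each in 0 of the 9 windows on either strand, and 9.42% and 4.31% of all windows hold them. Only the E-box matched, so matches of different motifs could not overlap. A match describes letters only, and a window without one says nothing on whether a factor binds the gene.

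The galactolipid enzymes were the 3 most abundant of the 9 in control nerve, and in Zeb2 cKO nerve Ugt8a and Fa2h were the least abundant. Ugt8a encodes the ceramide galactosyltransferase that makes galactosylceramide (chromosome 3, 125568261 to 125641468, mm9). It was at 459 FPKM in control nerve against 9.44 FPKM in Zeb2 cKO nerve, a level 48.6-fold lower (counting interval 45.4 to 52.1). Fa2h encodes the fatty acid hydroxylase that supplies hydroxylated acyl chains for these lipids (chromosome 8, 113869038 to 113917721). Its level was 194 FPKM in control nerve against 2.59 FPKM in Zeb2 cKO nerve, 74.8-fold lower (63.9 to 88.1), and the lower value rests on an estimated 157 reads against 17201. Gal3st1 encodes the sulfotransferase that turns galactosylceramide into sulfatide (chromosome 11, 3883639 to 3899331). It stood at 141 and 21.97 FPKM, 6.42-fold lower (6.005 to 6.87). The level of Gal3st1, summed over its transcripts, was thus lower by less than those of Ugt8a and Fa2h, and its counting interval did not overlap theirs.

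**Figure D1:**
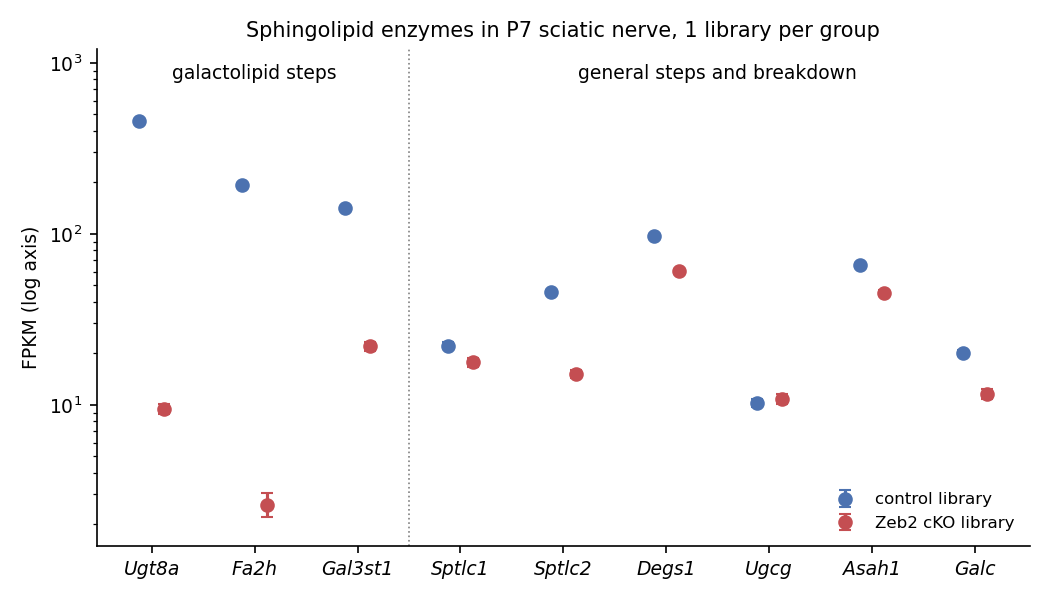
Level of the 9 genes in FPKM (log axis) in the control library (blue) and the Zeb2 cKO library (red), 1 library per group. Bars are 95% counting intervals and are mostly smaller than the points. Ugt8a, Fa2h and Gal3st1 are the highest in the control library, and Fa2h is the lowest point of all at 2.59 FPKM.

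On the scale used for counting, log2((FPKM Zeb2 cKO + 1)/(FPKM control + 1)), the ratios were -5.46 for Ugt8a, -5.76 for Fa2h and -2.63 for Gal3st1. Among the 12903 genes measured, Fa2h had the 31st lowest ratio, Ugt8a the 39th lowest and Gal3st1 the 192nd lowest. The pseudocount of 1 FPKM weighs most on Fa2h, whose ratio was -6.17 with a pseudocount of 0.1 FPKM and -4.71 with one of 5 FPKM. Of the 9 genes, 4 lay 2-fold or more below control (the 3 galactolipid genes and Sptlc2) and 0 lay as far above. Of all measured genes, 6.25% lay that far below and 8.59% that far above. At 1.5-fold, 6 of the 9 were lower and 0 higher, against 9.81% and 19.7% of measured genes, and at 3-fold 3 were lower and 0 higher, against 3.54% and 3.11%. The median ratio was -0.74 over the 9 genes and 0.18 over all measured genes. By plain FPKM, 8 of the 9 were lower in the Zeb2 cKO library, all but Ugcg, as were 32.4% of measured genes.

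**Figure D2:**
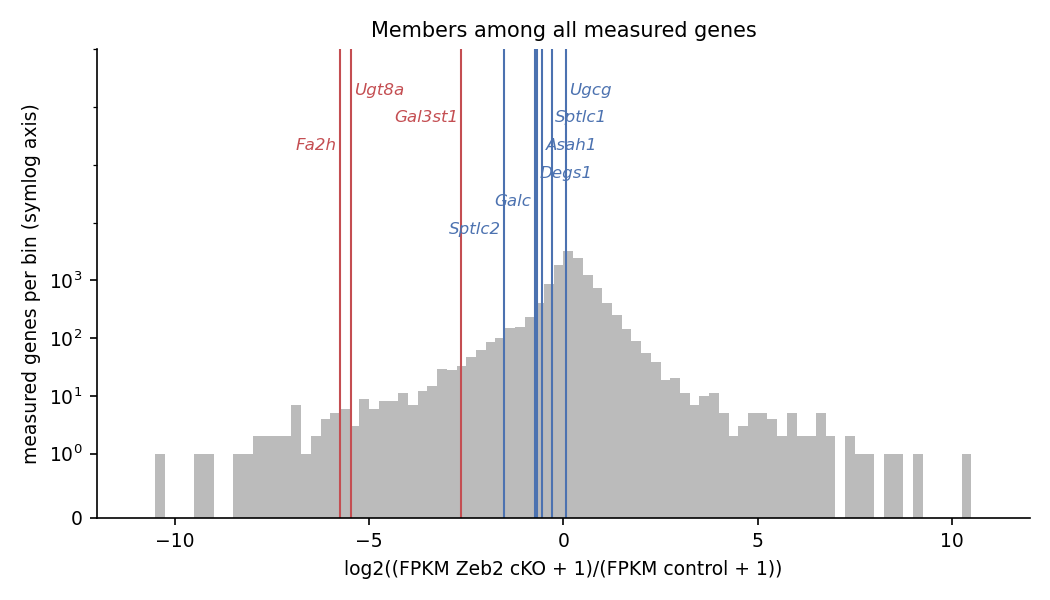
Number of measured genes per bin of 0.25 in the log2 ratio of Zeb2 cKO to control (symlog axis, grey), with the 3 galactolipid genes (red lines) and the 6 general genes (blue lines). Fa2h and Ugt8a lie in the far left tail at -5.76 and -5.46, and the general genes lie between -1.53 and 0.07.

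Gal3st1 was the single gene of the 9 with several transcripts in the tables, and they differed in how much lower they were. Of its 3 transcripts, 2 begin at the upstream start and 1 begins 6297 bases further downstream, at the internal start, and the RefSeq windows shown above have the same spacing. The internal transcript, of 1620 bases, was at 74.6 FPKM in control nerve against 6.59 FPKM in Zeb2 cKO nerve, 11.3-fold lower (9.98 to 12.9). The upstream transcripts, of 1751 and 1969 bases, were at 34.3 and 32.2 FPKM in the control library and at 8.13 and 7.25 FPKM in Zeb2 cKO nerve. Summed, the upstream transcripts were 4.32-fold lower (3.99 to 4.69). The internal transcript was the most abundant of the 3 in control nerve, with 52.9% of the Gal3st1 level. In Zeb2 cKO nerve it was the least abundant, behind the upstream transcripts with 37.0% and 33.0%. These transcripts share exons, so their values are estimates of how Cufflinks divided common reads, and the counting intervals do not cover that division.

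**Figure D3:**
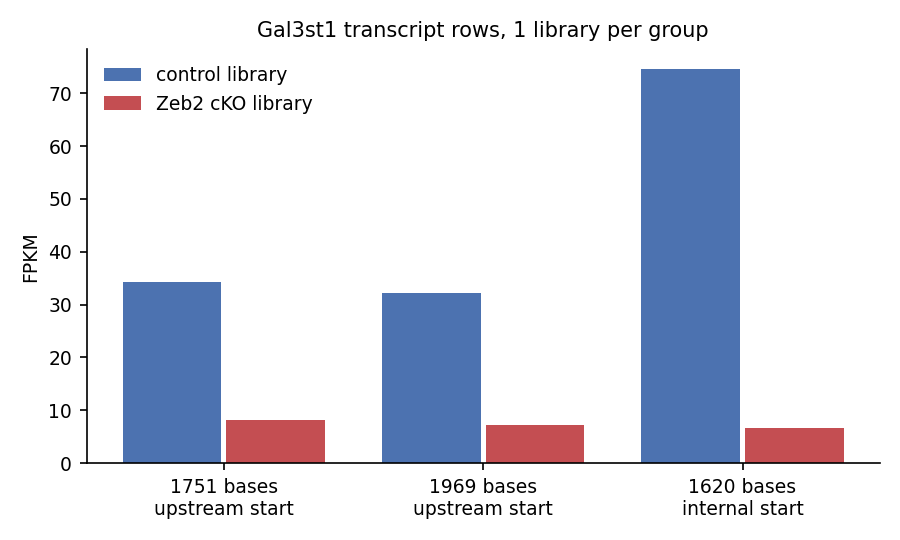
FPKM of the 3 Gal3st1 transcripts, named by length and start, in the control (blue) and Zeb2 cKO (red) library, 1 library per group. The internal transcript is the tallest control bar at 74.6 FPKM and the shortest Zeb2 cKO bar at 6.59 FPKM.

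The general enzymes of ceramide synthesis were lower by smaller and unequal amounts. Sptlc1 and Sptlc2 encode subunits of serine palmitoyltransferase, which begins sphingolipid synthesis, and Sptlc2 carries the catalytic site. Sptlc2 (chromosome 12, 88648839 to 88729180) was at 45.9 FPKM in control nerve against 15.2 FPKM in Zeb2 cKO nerve, 3.02-fold lower (2.85 to 3.20). Sptlc1 (chromosome 13, 53428119 to 53472730) stood at 22.2 and 17.8 FPKM, 1.25-fold lower (1.16 to 1.35). The subunits therefore changed places. Sptlc2 stood at 2.07 times the level of Sptlc1 in control nerve and at 0.857 times in Zeb2 cKO nerve. Degs1 encodes the desaturase that completes ceramide (chromosome 1, 184205901 to 184212890). Its level was 97.5 and 60.3 FPKM, 1.62-fold lower (1.55 to 1.69), and it was the most abundant of the 9 transcripts in the Zeb2 cKO library.

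Ugcg, the glucosyltransferase that competes with Ugt8a for ceramide (chromosome 4, 59202422 to 59235705), was at 10.2 FPKM in control nerve against 10.8 FPKM in Zeb2 cKO nerve. Its ratio of 1.06 had a counting interval of 0.971 to 1.15, so a difference was not detectable at this depth. Its log2 ratio of 0.07 turned to -0.12 after the Zeb2 cKO values were rescaled so that the median gene did not differ, and to -0.02 after rescaling to the upper quartile. The ratio of Ugt8a to Ugcg, both per length, was 44.8 in control nerve and 0.873 in Zeb2 cKO nerve. Of this pair, the galactosyltransferase transcript was the higher in the control library and the glucosyltransferase transcript in the Zeb2 cKO library, and a ratio within a library does not depend on the scaling between libraries.

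Both breakdown enzymes were lower, within 2-fold. Asah1 encodes acid ceramidase of the lysosome (chromosome 8, 42425997 to 42460051). Its level was 65.8 and 44.8 FPKM, 1.47-fold lower (1.40 to 1.54). Galc encodes the lysosomal galactosylceramidase that removes galactose from galactosylceramide, the enzyme lost in Krabbe disease (chromosome 12, 99440510 to 99497547). It stood at 20.04 and 11.6 FPKM, 1.73-fold lower (1.61 to 1.86). Ugt8a was at 22.9 times the level of Galc in control nerve and at 0.816 times in Zeb2 cKO nerve, so the breakdown transcript was the more abundant of the pair there. The ratio of Degs1, which makes ceramide, to Asah1, which degrades it, was 1.48 and 1.35.

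By class, the 3 galactolipid genes summed to 794 FPKM in control nerve against 34.0 FPKM in Zeb2 cKO nerve, 23.3-fold lower. The 6 general genes summed to 262 and 160.5 FPKM, 1.63-fold lower. Galactolipid genes made up 75.2% of the summed level of the 9 genes in control nerve and 17.5% in Zeb2 cKO nerve. The folds of the classes did not overlap. The galactolipid genes were between 6.42-fold and 74.8-fold lower, and the general genes ranged from 3.02-fold lower in Sptlc2 to the ratio of 1.06 in Ugcg. The order in the control library was Ugt8a, Fa2h, Gal3st1, Degs1, Asah1, Sptlc2, Sptlc1, Galc and Ugcg, with no overlap of counting intervals between neighbours. In the Zeb2 cKO library it was Degs1, Asah1, Gal3st1, Sptlc1, Sptlc2, Galc, Ugcg, Ugt8a and Fa2h. There the intervals of Galc (10.9 to 12.3 FPKM) and Ugcg (10.1 to 11.5 FPKM) overlapped, and those of Ugcg and Ugt8a (8.80 to 10.1 FPKM) all but met.

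Levels were also set against Sox10 within each library. Sox10 was itself 2.01-fold lower, so any gene that was lower by less than that stands higher against it, and on this scale 58.0% of all measured genes were 2-fold or more higher. The values below thus restate the FPKM on the scale of 1 lineage gene, and other genes of the lineage list would give other scales. Ugt8a stood at 3.30 times the Sox10 level in control nerve and at 0.136 times in Zeb2 cKO nerve. Fa2h went from 1.40 to 0.0374 times, and Gal3st1 from 1.01 to 0.317 times. Sptlc2 also stood lower against Sox10, at 0.330 and 0.220 times. The other 5 general genes, lower or level by FPKM, stood higher against Sox10 in the Zeb2 cKO library. Degs1 was at 0.701 and 0.871 times, Asah1 at 0.473 and 0.648 times, and Galc at 0.144 and 0.167 times. Sptlc1 was at 0.160 and 0.256 times and Ugcg at 0.0736 and 0.156 times. The direction of Degs1, Asah1, Galc and Sptlc1 therefore differed between plain FPKM and the Sox10 scale. Ugcg, level by FPKM, stood higher on the Sox10 scale only, and the galactolipid genes and Sptlc2 were lower on both. These genes are expressed outside Schwann cells too, and the share of each cell type in their level was not tested.

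**Figure D4:**
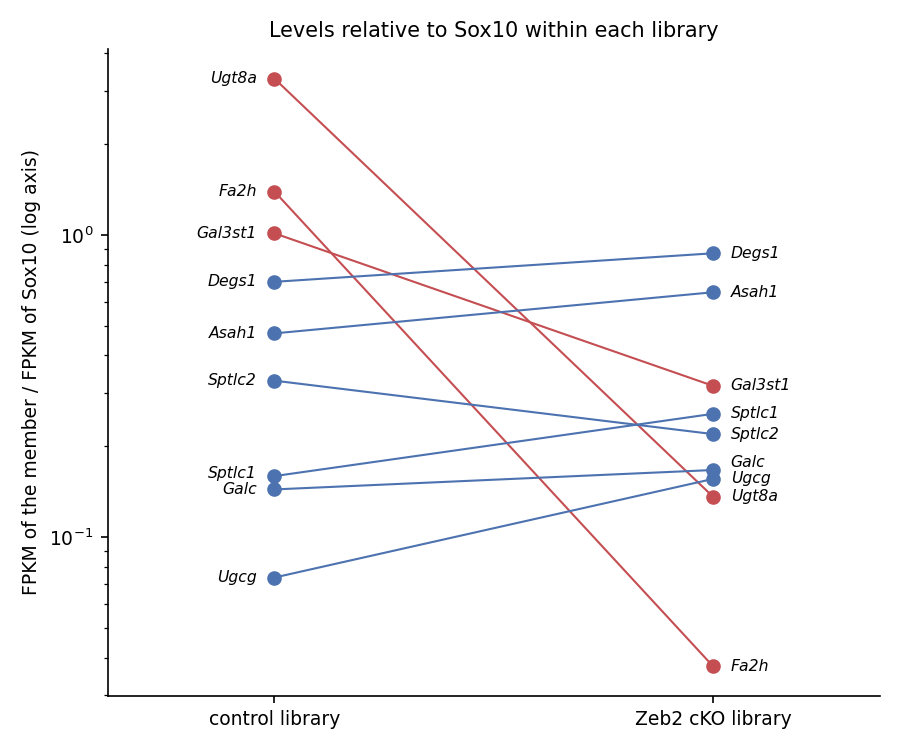
FPKM of each gene divided by the FPKM of Sox10 in the same library (log axis), control on the left and Zeb2 cKO on the right. The galactolipid genes (red) all slope down, with Fa2h ending at 0.0374, and of the general genes (blue) only Sptlc2 slopes down.

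Against Pmp22 and Egr2 the 3 galactolipid genes did not keep one proportion. Pmp22, a structural protein of compact myelin, was 25.8-fold lower. Egr2, a regulator of myelination, was 6.21-fold lower. The ratio of Ugt8a to Pmp22 was 0.0377 in control nerve and 0.0200 in Zeb2 cKO nerve, and that of Fa2h was 0.0160 and 0.00551. The ratio of Gal3st1 to Pmp22 was higher in the Zeb2 cKO library, at 0.0467 against 0.0116. Relative to Egr2, Ugt8a was at 8.41 and 1.07 times and Fa2h at 3.56 and 0.295 times. Gal3st1 stood at 2.59 times the Egr2 level in control nerve, and its proportion in Zeb2 cKO nerve was 0.967 of that. Within the pathway, Gal3st1 was at 0.308 times the level of Ugt8a in control nerve and at 2.33 times in Zeb2 cKO nerve. With only the internal Gal3st1 transcript the ratios to Ugt8a were 0.163 and 0.698, and those to Egr2 were 1.37 and 0.750. That transcript was the most abundant of the gene in control nerve and the least abundant in Zeb2 cKO nerve.

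Beyond the 9 genes, 65 other sphingolipid genes in 7 lists were looked up by symbol or RefSeq accession, and 56 were measured. At 2-fold, 6 of these were lower and 8 higher, which is 10.7% and 14.3%, against 6.25% and 8.59% of all measured genes. Their median log2 ratio was 0.18, the same as over all measured genes. Among 11 other genes of ceramide synthesis, the ceramide synthases differed. Cers2, listed under its older name Lass2, which makes ceramides with very long acyl chains, was at 211 FPKM in control nerve against 98.1 FPKM in Zeb2 cKO nerve, and its locus overlaps Setdb1. Cers4 was at 22.8 and 8.27 FPKM, 2.75-fold lower, and Cers6, another ceramide synthase, was low in both at 1.40 and 3.84 FPKM. Ormdl3, a membrane protein that restrains serine palmitoyltransferase, was at 17.7 and 34.8 FPKM, just within 2-fold on the counting scale at 0.94.

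The branches that use ceramide for other lipids were mixed. St8sia5, a sialyltransferase of ganglioside synthesis, was at 14.4 FPKM in control nerve against 0.315 FPKM in Zeb2 cKO nerve, 45.9-fold lower (27.8 to 82.0), and the lower value rests on an estimated 15 reads. A4galt, which makes globo-series glycolipids, was 3.09-fold higher, from 3.66 to 11.3 FPKM. Among sphingomyelin genes, Samd8, a ceramide phosphoethanolamine synthase, was lower at 29.1 and 11.8 FPKM. Sgms2, a sphingomyelin synthase, was at 1.42 and 4.11 FPKM, and Smpdl3a, a relative of acid sphingomyelinase, was at 7.78 and 21.1 FPKM. Sgms1, the other sphingomyelin synthase, was at 18.6 and 19.3 FPKM.

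The list for lysosomal breakdown also holds genes that encode no lysosomal hydrolase, such as Sumf1 and Scarb2. Its genes other than Galc stayed within 2-fold for 12 of 12 genes, with a median log2 ratio of 0.27. Most measured genes also did, since 6.25% were lower and 8.59% higher at that threshold. Psap, the precursor of the saposins that help these hydrolases reach their lipids, was at 420.0 and 435.5 FPKM. Arsa, the arylsulfatase that removes sulfate from sulfatide, was at 6.92 and 10.5 FPKM. Galc had the lowest ratio of the 13 genes of its list, at -0.74, and the next lowest was -0.34. Among transfer proteins, Abca2, a lipid transporter of endolysosomes, was at 37.8 and 17.2 FPKM, and the other 4 were within 2-fold.

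**Figure D5:**
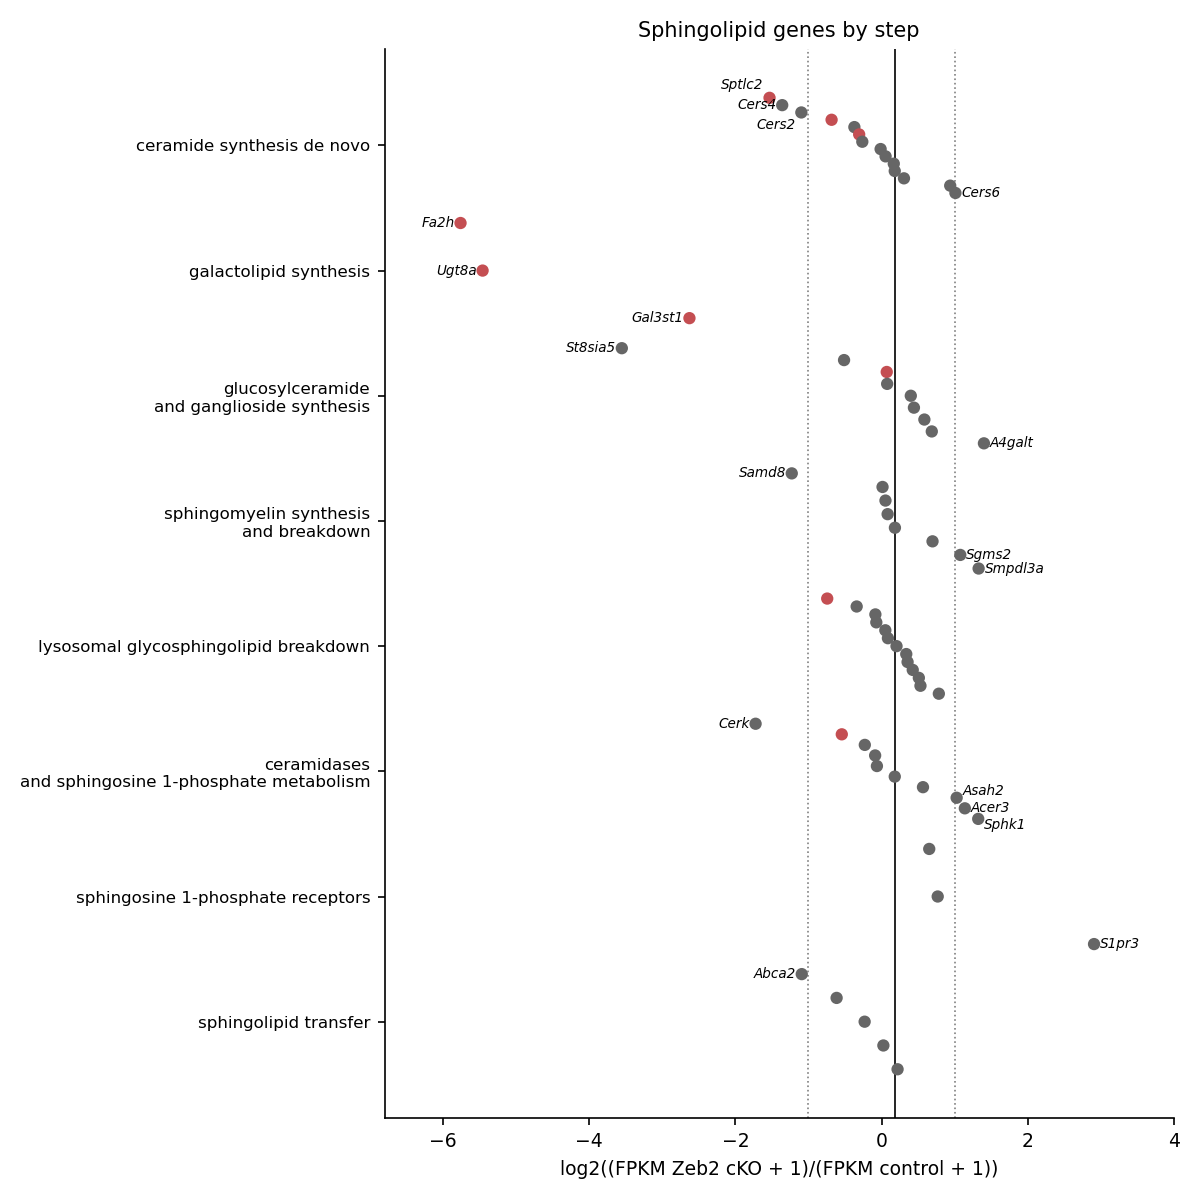
Log2 ratio of Zeb2 cKO to control for the measured sphingolipid genes of each list, with the 9 enzymes in red, the median of all measured genes as a solid line and 2-fold as dotted lines. Genes at 2-fold or more are named. The lysosomal list lies wholly within 2-fold, and the galactolipid list wholly beyond it.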

How the data were processed

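RNA sequencing of pooled sciatic nerves was analysed from 2 tables, each taken as 1 library and assigned to its group, not to a numbered sample, by the labels. The authors used CASAVA, TopHat, Cufflinks and Cuffdiff on build mm9, per the submitters' processing notes; versions are not given in the sources used here. The deposited FPKM values are Cufflinks output, per the file headers, for 28107 RefSeq transcripts. The deposited coverage signal is mean read depth per base. No column was left unmatched.

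Rows not quantified as OK in both libraries (295) were left out, and FPKM was summed per symbol, which left 21965 genes, of which 12903 had a mean of at least 1 FPKM. A pseudocount of 1 FPKM was added before log2. Coverage times length divided by 52.6 bases, the median of the lowest cluster in single-transcript genes above 2000 bases, estimated reads. Poisson and Clopper-Pearson intervals (95%) were computed from these reads with scipy 1.17.1. By coverage over FPKM the control library was 1.47 times as deep. Use of strand in counting is not stated, but none of the 9 loci overlaps another symbol in the tables. Positions count from 1.

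The 9 genes and the lists were chosen with earlier results of these data known, so they are described and not tested. Of 74 sphingolipid list entries, 66 matched by symbol and 8 by accession. Named genes were the 9, up to 4 genes per list that were 2-fold or more apart, the 3 nearest ratios to each galactolipid gene at 20 FPKM or more, and the references Zeb2, Sox10 and Egr2. Ormdl3, Sgms1, Psap, Arsa, S1pr1, S1pr2, Sgpl1 and Pmp22 were added after values were seen. Alternatives were other pseudocounts, filters, thresholds, statuses, scalings and the top transcript, and the code was tested on simulated data.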

Additional observations from a re-analysis of the deposited data

How the results depend on the processing

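The 3 galactolipid genes were 2-fold or more lower under all 12 alternatives, and no called gene of the 9 changed direction. The filters, statuses and thresholds leave the ratios of the 9 genes as they are, so these alternatives could not have changed that. The count of 4 lower genes held under 9 of the 12, among them the filters and statuses, which could not change it. It was 6 with a 1.5-fold threshold, and 3 (without Sptlc2) with a 3-fold threshold or after rescaling to Sox10. Rescaling to the median gene moved the median of all genes from 0.18 to about 0, that of the 9 genes to -0.93, and the counts over all genes from 806 lower and 1109 higher to 958 and 778. Rescaling to Sox10, chosen after the data were seen, moved the median of all genes to 1.08 and that of the 9 genes to 0.20. It put 1 of them, Ugcg, 2-fold higher, and left 34 wider genes higher and 1, St8sia5, lower, where 58.0% of all measured genes were higher and 3.06% lower. Of the 56 wider genes, the 8 that were 2-fold higher became 15 at 1.5-fold, against 19.7% of all measured genes. At 3-fold they became 1 (S1pr3), against 3.11%. They became 4 (A4galt, Acer3, S1pr3 and Smpdl3a) at a mean of 5 FPKM, where 8.12% of all genes past that filter were higher. With a pseudocount of 5 FPKM they were 2 (S1pr3 and Smpdl3a), against 3.70% of all measured genes. After rescaling to the median gene they were 4 (A4galt, S1pr3, Smpdl3a and Sphk1), against 6.08%. The 6 lower ones became 2 (Cerk and St8sia5) at 3-fold, against 3.54% of all measured genes. No paired analysis was possible because each group has 1 library here, and for the same reason none could be left out.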

Other observations

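Of the 12 other measured genes of ceramidases, sphingosine 1-phosphate (the signalling lipid made after ceramide is broken down) and its receptors, 4 were 2-fold or more higher and 1 was lower, against 8.59% and 6.25% of all measured genes. The receptor S1pr3 was at 19.99 FPKM in control nerve against 156.7 FPKM in Zeb2 cKO nerve, 7.84-fold higher (counting interval 7.55 to 8.14). The receptors S1pr1 and S1pr2 were at 7.68 and 12.7 FPKM, and at 10.1 and 18.0 FPKM. Sphk1, a kinase that makes the lipid, was at 2.23 and 7.10 FPKM, 3.18-fold higher. The ceramidases Acer3 and Asah2 were at 4.60 and 11.3 FPKM, and at 1.48 and 4.06 FPKM. Sgpl1, the lyase that degrades the lipid, was at 25.8 and 21.9 FPKM. Cerk, ceramide kinase, was the lower gene, at 22.7 and 6.18 FPKM, 3.68-fold lower. Endothelial markers, which include cells that carry such receptors, summed to 124 and 203 FPKM, and their part in these values was not tested.

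Ratios nearest to those of the galactolipid genes were looked up among the 4031 genes that reached 20 FPKM in either library. Likeness rests on 2 libraries only. Nearest to Ugt8a were Fam178b (log2 ratio -5.54), Pllp, the proteolipid plasmolipin (-5.61), and Mir25. Nearest to Gal3st1 were Atp1b4 (-2.63), Mapk8ip1 (-2.61) and Adamts20 (-2.61). The 3 nearest to Fa2h were the microRNA rows Mir704, Mir409 and Mir1a-1, which, as Mir25, are listed at 0 in the Zeb2 cKO library. Without small RNA genes, a choice made after the values were seen, they were Emid1 (-5.68), the phosphatase Dusp15 (-5.87) and Pllp.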
